A study of Mus musculus with 12 samples.

Results

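The 10 genes described here differed from wild type in the same direction in 2 B-cell mutants, as read in CD8+ T cells of mouse lymph nodes. They are Mtus2, Trnp1, Eps8l1 and Itga7, which were higher in the mutants, and Utp14b, Fam83e, Guca2a, Mc1r, Adig and Stxbp4, which were lower. They are 10 of 13884 named genes measured. They were chosen for that shared shift, so every difference from wild type given below is a description and carries no test. Levels come from 12 Agilent 1-colour arrays, each hybridised with Cy3-labelled RNA of 1 sample of cells from female C57BL/6 mice, whose age the labels do not give.

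The tested genotypes were AID KO and uMT, and WT was the control. AID KO impairs antibody class switching and somatic hypermutation in B cells, and uMT mice carry a disrupted membrane exon of the mu heavy chain and so have no mature B cells. The total CD8+ T cell samples were taken from peripheral (PLN) and mesenteric (MLN) lymph nodes, with 1 array for each mutant and node and 2 WT arrays for each node. Naive (CD44 low) CD8+ T cells of PLN were sorted by Sca-1, the surface protein encoded by Ly6a, into Sca1p and Sca1m fractions of AID KO and of uMT, with 1 array each and no WT array. Both are germline mutations, which the T cells carry too. The labels do not name separate animals and the submitters call the design unreplicated, so p-values measure only the spread between these samples, which may be technical.

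On slide 1 were the AID KO PLN and uMT MLN arrays with replicate 1 of WT from each node, and slide 2 held the other total-cell arrays. Each mutant array could therefore be set against the WT array of its own node and slide, which gives 4 pairs. The naive arrays filled slide 3. A level is log2 of the spot's processed intensity minus the array's 75th percentile of it, and levels are compared between arrays for 1 probe, never between probes. Between 50.1% and 56.8% of the 59305 spots of an array were well above background, and no spot was saturated. The CD8 T cell label held on all 12 arrays, with Cd8a between 4.68 and 5.33, Cd8b1 between 7.67 and 8.16 and Cd3e between 6.06 and 6.67.

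AID KO below means arrays labelled AID KO, and every direction for that genotype refers to the label. No probe could be named as Ighm, the gene disrupted in uMT.

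The 10 genes do not form a pathway. Mtus2 binds microtubules, Eps8l1 belongs to a family that links growth factor receptors to actin remodelling, and Itga7 is a laminin-binding integrin chain known from muscle, while Trnp1 is a nuclear protein known from neural progenitors. Utp14b works in the complex that processes ribosomal RNA for the small subunit, and in mouse it is a retrogene known for its need in sperm formation. Guca2a encodes guanylin, a gut peptide that acts on guanylate cyclase C, Mc1r is the melanocortin receptor of pigment cells, Adig encodes the adipocyte protein adipogenin, Fam83e belongs to a family of casein kinase 1 anchors, and Stxbp4 binds syntaxin 4 in insulin-regulated vesicle traffic.

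Promoter windows are shown for the gene with the largest rise, the most even fall and the 2 falls that followed each other most closely over the arrays. Each runs from 250 bases before to 50 bases after a RefSeq gene start in GRCm38.p6, and capitals mark matches on either strand to the motifs named below.
Mtus2 promoter, chr5:147957070-147957369, plus strand: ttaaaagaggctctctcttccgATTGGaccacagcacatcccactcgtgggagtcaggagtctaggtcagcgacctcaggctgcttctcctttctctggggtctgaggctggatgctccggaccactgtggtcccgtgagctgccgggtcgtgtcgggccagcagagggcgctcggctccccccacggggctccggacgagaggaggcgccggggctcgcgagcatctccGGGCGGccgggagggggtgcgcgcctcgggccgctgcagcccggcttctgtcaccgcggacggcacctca
Utp14b promoter, chr1:78658190-78658489, plus strand: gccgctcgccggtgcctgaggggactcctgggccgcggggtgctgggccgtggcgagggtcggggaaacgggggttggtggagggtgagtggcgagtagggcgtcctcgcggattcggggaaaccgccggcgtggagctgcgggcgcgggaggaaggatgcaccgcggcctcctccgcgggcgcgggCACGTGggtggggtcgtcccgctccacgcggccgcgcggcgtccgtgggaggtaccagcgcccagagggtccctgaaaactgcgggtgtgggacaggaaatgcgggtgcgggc
Fam83e promoter, chr7:45720970-45721269, plus strand: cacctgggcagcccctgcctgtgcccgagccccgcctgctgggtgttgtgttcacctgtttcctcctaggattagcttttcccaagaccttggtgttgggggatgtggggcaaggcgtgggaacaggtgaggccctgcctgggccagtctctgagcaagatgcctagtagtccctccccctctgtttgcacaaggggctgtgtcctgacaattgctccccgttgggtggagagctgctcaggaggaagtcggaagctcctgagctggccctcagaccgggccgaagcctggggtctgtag
Guca2a promoter, chr4:119637482-119637781, plus strand: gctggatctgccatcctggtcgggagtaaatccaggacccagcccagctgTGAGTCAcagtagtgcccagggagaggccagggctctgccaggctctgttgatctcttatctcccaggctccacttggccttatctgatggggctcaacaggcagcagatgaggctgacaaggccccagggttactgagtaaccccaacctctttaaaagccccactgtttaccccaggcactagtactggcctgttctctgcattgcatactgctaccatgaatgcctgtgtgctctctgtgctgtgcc
The Utp14b and Mtus2 windows were rich in CpG, with 40 CpG and 75% GC for Utp14b and 28 CpG and 69% GC for Mtus2, against medians of 7 CpG and 52.7% GC over all 32851 promoter windows. The Guca2a window held 1 CpG and the Fam83e window 7, so the windows of these 2 genes were unlike those of Utp14b and Mtus2 in CpG. Found by symbol, 9 of the 10 genes had 12 such windows, with 3 for Eps8l1 and 2 for Mtus2, and Itga7 had none. The GC box GGGCGG was in 7 of 12 windows, those of 4 genes, and in 35.7% of all windows. An overlapping pair of Eps8l1 windows shares 1 of these matches. CCAAT was in 5 of 12 windows and in 37.4% of all. The E-box CACGTG was in 1 of 12, that of Utp14b (7.15% of all windows), and the AP-1 motif TGANTCA was in 1 of 12, that of Guca2a (7.81%). TATAAA (13.6% of all windows), TGACGTCA (1.79%) and CCGGAAG (8.86%) had no match in the 12. Both strands were searched, and a match is a run of letters and not a known site. The Fam83e and Guca2a windows shared none of these motifs.

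Mtus2 was higher in every mutant array than in every WT array. It read -1.10 in AID KO PLN, -0.85 in AID KO MLN, -0.35 in uMT PLN and -0.66 in uMT MLN, against -2.14 and -1.68 in WT PLN and -2.36 and -2.002 in WT MLN. The mean pair difference was 1.31 ± 0.29 (SD, n = 4 pairs), a 2.47-fold higher level. The smallest pair difference, 1.03 in AID KO PLN, was larger than the gap between the 2 WT arrays of a node (0.45 in PLN and 0.36 in MLN).

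Trnp1 was the least even of the rises. It read 0.81 in AID KO PLN, 0.54 in AID KO MLN, 2.15 in uMT PLN and 1.76 in uMT MLN, against 0.43 and 0.39 in WT PLN and -0.07 and -0.14 in WT MLN. Both uMT arrays stood far above the rest, and the AID KO arrays lay nearer to the WT arrays of their node. The mean pair difference was 1.16 ± 0.74 (SD, n = 4 pairs), with 1.80 in uMT and 0.53 in AID KO.

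Itga7 was higher by a nearly constant amount. It read -2.45 in AID KO PLN, -2.72 in AID KO MLN, -2.52 in uMT PLN and -2.74 in uMT MLN, against -3.29 and -3.24 in WT PLN and -3.75 and -3.48 in WT MLN. The pair differences lay between 0.72 and 1.02, with a mean of 0.83 ± 0.13 (SD, n = 4 pairs). In each genotype the MLN array was below the PLN array.

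Eps8l1 had 2 probes above background, and both were higher in the mutants. The brighter probe read -0.81 in AID KO PLN, -0.71 in AID KO MLN, -0.23 in uMT PLN and -0.49 in uMT MLN, against -1.30 and -1.36 in WT PLN and -1.39 and -1.56 in WT MLN. Its mean pair difference was 0.84 ± 0.26 (SD, n = 4 pairs), and that of the dimmer probe was 0.96 ± 0.48. The probes disagreed in uMT MLN, where the difference from WT was 0.89 on the brighter and 0.27 on the dimmer probe.

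Utp14b was the most even of the 10 genes on the log2 scale. It read -3.59 in AID KO PLN, -4.17 in AID KO MLN, -3.52 in uMT PLN and -4.00 in uMT MLN, against -1.93 and -1.97 in WT PLN and -2.35 and -2.39 in WT MLN. The groups were separated by a wide gap, and the WT arrays of a node almost coincided. The pair differences were -1.66, -1.78, -1.55 and -1.65 in that order of mutants, with a mean of -1.66 ± 0.09 (SD, n = 4 pairs), a 3.16-fold lower level.

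Fam83e and Guca2a were lower in step with each other. Fam83e read -5.00 in AID KO PLN, -4.47 in AID KO MLN, -3.99 in uMT PLN and -4.27 in uMT MLN, against -2.79 and -2.59 in WT PLN and -2.77 and -2.42 in WT MLN. The AID KO PLN spot was not well above background, and by its own signal that array was 4.63-fold lower than its WT array. For such spots the WT level was set against the higher of the probe's own signal and the lowest signal well above background on the mutant array. Only folds from the latter are bounds, written as at least. The own signal of a spot within background is uncertain, and all these folds hold for this background correction alone. Guca2a read -4.12 in AID KO PLN, -3.48 in AID KO MLN, -3.07 in uMT PLN and -3.27 in uMT MLN, against -1.92 and -1.67 in WT PLN and -1.75 and -1.74 in WT MLN. For both genes the AID KO arrays were the lowest and the WT levels differed little between nodes. The mean pair difference was -1.79 ± 0.40 for Fam83e and -1.72 ± 0.35 for Guca2a (SD, n = 4 pairs each).

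Mc1r was lowest in uMT. It read -4.82 in AID KO PLN, -3.85 in AID KO MLN, -5.16 in uMT PLN and -5.23 in uMT MLN, against -3.49 and -3.02 in WT PLN and -2.67 and -2.69 in WT MLN. The uMT MLN spot was not well above background, by its own signal 5.89-fold lower than its WT array, and the AID KO MLN array came closest to WT. The mean pair difference was -1.80 ± 0.66 (SD, n = 4 pairs).

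Adig read -4.78 in AID KO PLN, -4.41 in AID KO MLN, -4.28 in uMT PLN and -5.20 in uMT MLN, against -3.53 and -2.77 in WT PLN and -3.67 and -3.12 in WT MLN. The WT arrays of a node differed by 0.76 in PLN and 0.56 in MLN, yet the pair differences were even, at -1.40 ± 0.15 (SD, n = 4 pairs). In each node the slide with the higher WT array also held the higher mutant array. The uMT MLN spot was not well above background, by its own signal 2.88-fold lower than its WT array.

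Stxbp4 was not well above background on any of the 4 mutant total-cell arrays and was above it on all 4 WT arrays. It read -4.99 in AID KO PLN, -5.28 in AID KO MLN, -6.04 in uMT PLN and -6.66 in uMT MLN, against -4.44 and -4.02 in WT PLN and -4.48 and -3.91 in WT MLN. Set against WT by the rule given for Fam83e, the mutants were on average 2.23-fold lower. By pair the fold was 1.46 in AID KO PLN by its own signal, and at least 2.33 in AID KO MLN, 3.42 in uMT PLN and 2.12 in uMT MLN. These folds hold for this background correction alone. The mutants' own values lie within the background, so the order of the 4 mutant arrays is not read.

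**Figure D1:**
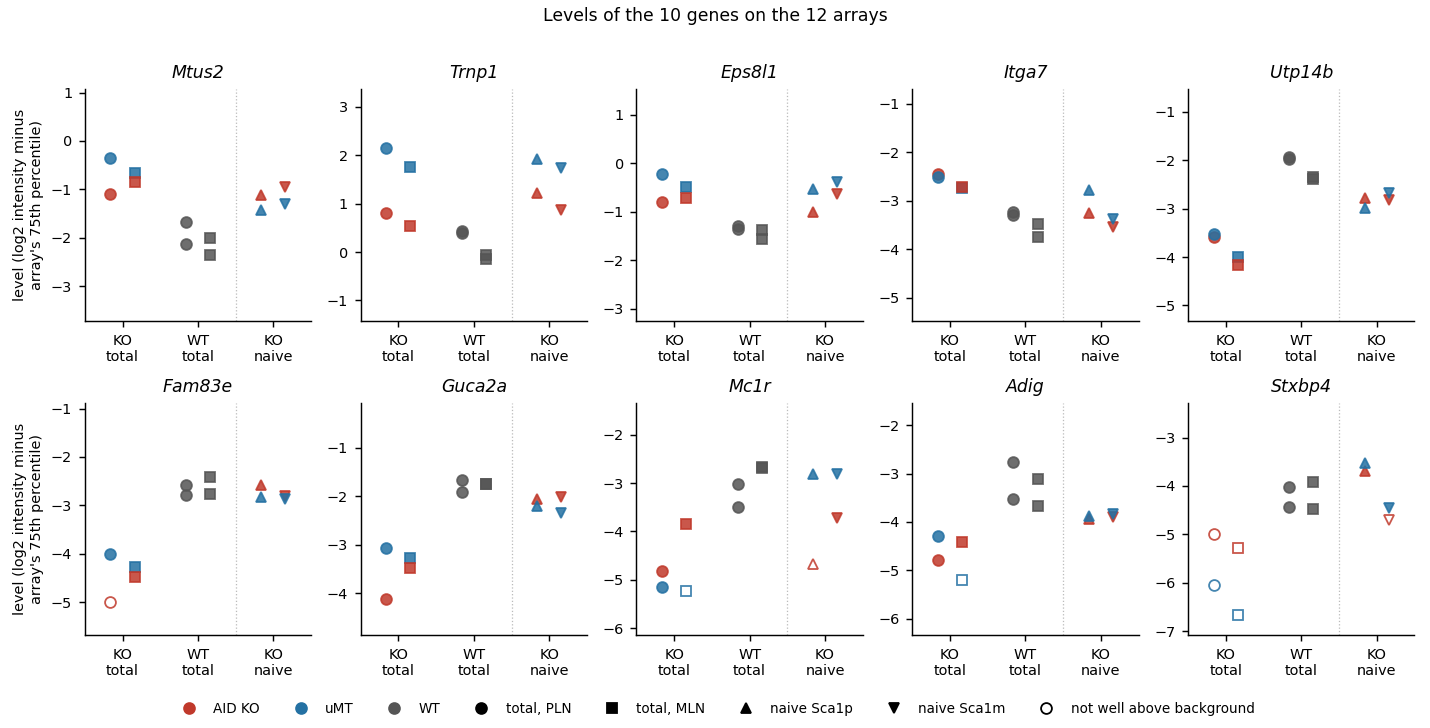
Level of each gene on each array (log2 intensity minus the array's 75th percentile), with mutant total cells left of WT total cells and naive mutant cells beyond the dotted line. Colours give the genotype, shapes the node or sort fraction, and open symbols spots that were not well above background; the mutant and WT total-cell arrays overlap for none of the 10 genes, and Stxbp4 is open on all 4 mutant total-cell arrays.

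In these bulk samples, fewer cells of a type and less RNA per cell cannot be told apart. Of the 14 probes of the 10 genes on the array, 11 were well above background on at least 2 arrays, and for these 11 the mutant and WT groups did not overlap. Over all features, 3.5% had non-overlapping groups with the mutants higher and 2.96% with the mutants lower. All 4 pairs agreed in sign upward for 13.5% of features and downward for 13% of them. A fit over all features called 141 of 25387 (0.555%) at an adjusted p under 0.05 in mutants versus WT (limma, Benjamini-Hochberg), 0.173% higher and 0.382% lower. The 10 genes are among those calls by choice, and nothing is read from their count. A second Stxbp4 probe was above background on 1 of 12 arrays, and a second probe each of Mtus2 and Itga7 on 0 of 12.

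The median mean pair difference was 1.00 over the 4 rises and -1.69 over the 6 falls, where all features had a median of 0.00 and a central 95% between -0.71 and 0.58. The genes were chosen for such shifts, so this restates the choice. Few features matched the larger shifts in all 4 pairs, which restates the choice too. In all, 4 features, the gene itself included, had 4 pairs of the same sign all at least as large as the smallest pair of Utp14b, and the count was 5 for Fam83e, 6 for Guca2a, 7 for Mtus2, 9 for Adig, 12 for Mc1r and 21 for Itga7. It was 80 for Eps8l1 and 168 for Trnp1, whose smallest pairs were in AID KO PLN, and Stxbp4, with its mutant spots within background, was not ranked. Of the 10 genes, those nearest the threshold were Mc1r (adjusted p = 0.0346 in the limma fit) and Itga7 and Eps8l1 (0.0376 each). Among named genes with 4 pairs of the same sign, the nearest outside it were Pbld2 (0.80, adjusted p = 0.0505), Gprc5b (0.64, 0.0505) and Slc25a2 (-0.84, 0.0526). The threshold alone does not set the 10 apart. Other named genes passed it too, such as Orc1 (-1.03, adjusted p = 0.0351), Scx (-1.06, 0.0419) and Fam83d (-1.46, 0.049). These p-values belong to the choice and are given as a description.

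**Figure D2:**
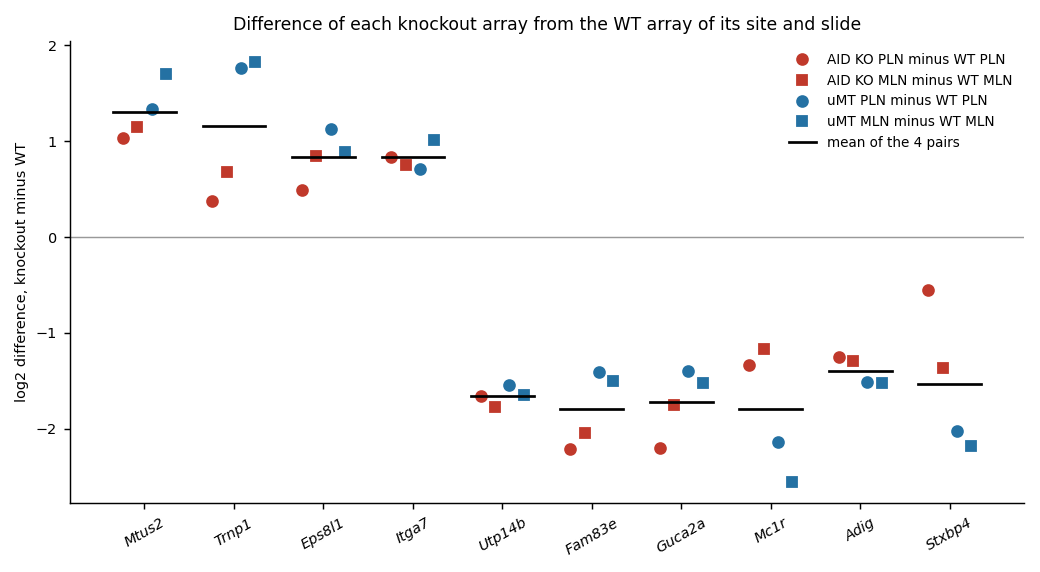
Difference of each mutant total-cell array from the WT array of its node and slide (log2), with a bar at the mean of the 4 pairs. Every point of Mtus2, Trnp1, Eps8l1 and Itga7 is above 0 and every point of the other 6 genes is below it; Utp14b spans -1.78 to -1.55 and Trnp1 spans 0.38 to 1.83, and the Stxbp4 points come from mutant spots within background, so their order is not read.

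The share of each mutant varied from gene to gene, as a description with no test. The mean of 2 pair differences was 0.87 in uMT and 0.80 in AID KO for Itga7, -1.60 in uMT and -1.72 in AID KO for Utp14b, and -1.52 in uMT and -1.27 in AID KO for Adig. These 3 genes were close to equal in the mutants. Trnp1 (1.80 in uMT, 0.53 in AID KO) and Mc1r (-2.35 in uMT, -1.25 in AID KO) lay further from WT in uMT. Fam83e (-1.46 in uMT, -2.13 in AID KO) and Guca2a (-1.46 in uMT, -1.97 in AID KO) lay further from WT in AID KO. Mtus2 had 1.52 in uMT and 1.09 in AID KO, and the brighter Eps8l1 probe had 1.01 in uMT and 0.67 in AID KO. The dimmer Eps8l1 probe ran the other way, with 0.78 in uMT and 1.14 in AID KO. Stxbp4 is left out here, as its mutant spots were within background.

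**Figure D3:**
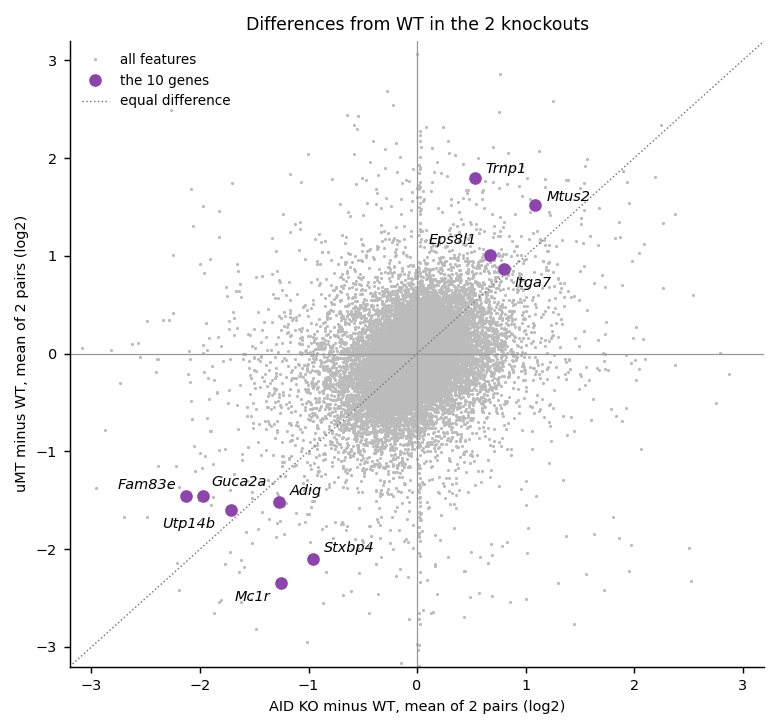
Mean difference from WT in uMT (vertical) against that in AID KO (horizontal), each over 2 pairs and on the log2 scale, for all features (grey) and the 10 genes (purple). The dotted line marks equal differences; Itga7, Utp14b and Adig lie near it, Trnp1 and Mc1r are displaced toward uMT, Fam83e and Guca2a toward AID KO, the place of Stxbp4 rests on spots within background, and 27 features lie outside the axes.

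One limit bears on the sizes. Under another background correction (normexp with an offset of 50, which compresses dim spots), 10 of 10 genes had the same sign, and for 7 the mean difference shrank by over 1.5 times. The falls then lay between -1.07 for Guca2a and -0.33 for Stxbp4, and Itga7 was at 0.46.

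Of the 6 lower genes, Utp14b, Fam83e, Guca2a and Adig read higher on every naive array than on any total-cell mutant array. Utp14b read -2.98 and -2.68 in Sca1p and Sca1m uMT cells and -2.77 and -2.81 in Sca1p and Sca1m AID KO cells, above the highest total-cell mutant array (-3.52). Fam83e read -2.84 and -2.88 in Sca1p and Sca1m uMT cells and -2.57 and -2.81 in Sca1p and Sca1m AID KO cells, where the total-cell mutant arrays reached at most -3.99. Guca2a read -2.21 and -2.35 in Sca1p and Sca1m uMT cells and -2.06 and -2.01 in Sca1p and Sca1m AID KO cells, where they reached at most -3.07.
These 3 genes were nearly flat over the naive fractions. Adig was flatter still, with all 4 naive arrays between -3.93 and -3.83. Stxbp4 read -3.53 and -4.46 in Sca1p and Sca1m uMT cells and -3.70 and -4.71 in Sca1p and Sca1m AID KO cells, the last not well above background. Mc1r read -2.80 and -2.81 in Sca1p and Sca1m uMT cells and -4.66 and -3.73 in Sca1p and Sca1m AID KO cells, with the Sca1p AID KO spot not well above background.
All 4 naive arrays stood above all 4 total-cell mutant arrays for 5 of the 6 lower genes, Stxbp4 with its mutant spots within background among them. For Mc1r 3 of 4 did, and the Sca1p AID KO array was below the AID KO MLN array. That pattern held for 15.1% of all features and for 46.9% of the 96 features called lower in mutants versus WT. The genes were chosen for low levels on those total-cell arrays, and slide 3 held naive cells alone, so cell state and slide cannot be told apart.

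Of the higher genes, Itga7 was lower on all 4 naive arrays (between -3.54 and -2.78) than on any total-cell mutant array. Mtus2 was lower on 3 of 4, reading -1.43 and -1.30 in Sca1p and Sca1m uMT cells and -1.12 and -0.95 in Sca1p and Sca1m AID KO cells. The brighter Eps8l1 probe (between -0.997 and -0.39) and Trnp1 (between 0.87 and 1.91) stayed within the total-cell mutant range on 3 and 4 of the 4 naive arrays. The dimmer Eps8l1 probe did not, since all 4 naive arrays (between -3.71 and -3.04) lay below the total-cell mutant arrays (between -2.92 and -2.52). All 4 naive arrays lay below the total-cell mutant arrays for 15.3% of all features and for 34.1% of the 44 called higher in mutants versus WT.

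Comparisons that the choice did not use were tested in the same fit over all features. In MLN versus PLN total cells, 0 of 10 genes passed an adjusted p of 0.05, against a background of 0.11% of features. With limma, 5 of 10 had an unadjusted p under 0.05, as did 9.17% of all features, and the choice of genes used the same residual spread, so their p-values lean low. Utp14b differed by -0.48 ± 0.08 (SE; adjusted p = 0.165, limma), with the MLN array lower in 4 of 4 comparisons within a genotype. Those of AID KO and uMT cross slides, since their PLN and MLN arrays lay on different slides. Trnp1 differed by -0.42 ± 0.08 (adjusted p = 0.198, limma), also lower in 4 of 4, and Mc1r by 0.51 ± 0.18 (adjusted p = 0.481, limma), higher in 3 of 4. The 95% interval of the difference ran between -0.67 and -0.28 for Utp14b and between -0.62 and -0.23 for Trnp1. Under normexp, Utp14b was at -0.22 and Mc1r at 0.25. The median over the 10 genes was -0.18, and over all features -0.01.

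In Sca1p versus Sca1m naive cells, 0 of 10 genes passed (background 0.0158% of features), and with limma 2 had an unadjusted p under 0.05, as did 8.38% of features. Here too the p-values lean low and the intervals narrow, since the choice of genes used the same residual spread. Stxbp4 was 0.97 ± 0.19 higher in Sca1p (SE; adjusted p = 0.256, limma), in 2 of 2 genotypes. Its 95% interval was 0.49 to 1.44, 1 of the 2 Sca1m arrays was not well above background, and under normexp the difference was 0.27, outside that interval. Itga7 was 0.45 ± 0.13 higher in Sca1p (adjusted p = 0.45, limma), in 2 of 2 genotypes. For Guca2a the difference was 0.04, with an interval of -0.31 to 0.39, and for Adig -0.04, with an interval of -0.28 to 0.19.

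In uMT versus AID KO naive cells, 0 of 10 genes passed (background 0.347% of features), and with limma 4 had an unadjusted p under 0.05, as did 8.89% of features. The same residual spread served the choice of genes, so these p-values also lean low and the intervals narrow. Trnp1 came nearest, at 0.78 ± 0.11 (SE; adjusted p = 0.0809, limma), higher in uMT in 2 of 2 fractions. Mc1r was 1.39 ± 0.25 higher in uMT (adjusted p = 0.143, limma), in 2 of 2 fractions, with 1 of the 2 AID KO arrays not well above background, and at 0.53 under normexp. Eps8l1 was at 0.35 ± 0.13 and Mtus2 at -0.33 ± 0.12 (adjusted p = 0.508 and 0.474, limma), each in 2 of 2 fractions. Utp14b differed by -0.03, with an interval of -0.32 to 0.25.

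**Figure D4:**
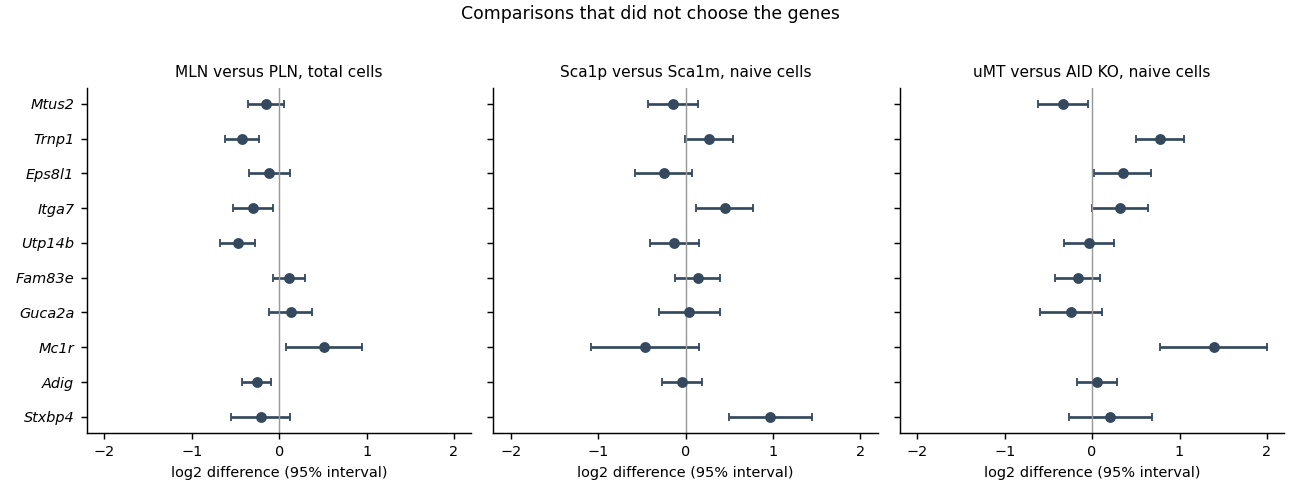
Differences of the 10 genes in the 3 tested comparisons (log2), points with 95% intervals from the limma fit, the group named first in each panel title minus the other. No gene passed an adjusted p of 0.05. The intervals lean narrow, since the choice of genes used the same residual spread. The unadjusted interval leaves out 0 for 5 genes in MLN versus PLN (Trnp1, Itga7, Utp14b, Mc1r, Adig), 2 in Sca1p versus Sca1m (Itga7, Stxbp4) and 4 in uMT versus AID KO naive cells (Mtus2, Trnp1, Eps8l1, Mc1r).

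The nearest measured genes on either side of each gene, and those that overlap it, mostly stood near WT. Of 24 such neighbours 0 passed in mutants versus WT in the limma fit, where 4 had an unadjusted p under 0.05 (17.8% of all features did). The sign of the gene they flank was shared by 13, 5 of them in all 4 pairs. Acsl3, a fatty acid ligase gene that overlaps Utp14b, differed by -0.14 ± 0.29, and Spaca4, a sperm protein gene that overlaps Fam83e, by -0.20 ± 0.15 (SD, n = 4 pairs each). Rdh13 and D630041G03Rik, which overlap Eps8l1, were at -0.07 and -0.01. Tcf25 and Tubb3, on the sides of Mc1r, were at 0.17 and 0.24, opposite in sign to Mc1r. Mogat1, beside Utp14b, came nearest to a call, at -0.83 ± 0.66 (SD, n = 4 pairs; adjusted p = 0.0598, limma) and lower in 4 of 4 pairs. Whether the array's labelling and design separate overlapping genes by strand is not given in the sources used here.

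**Figure D5:**
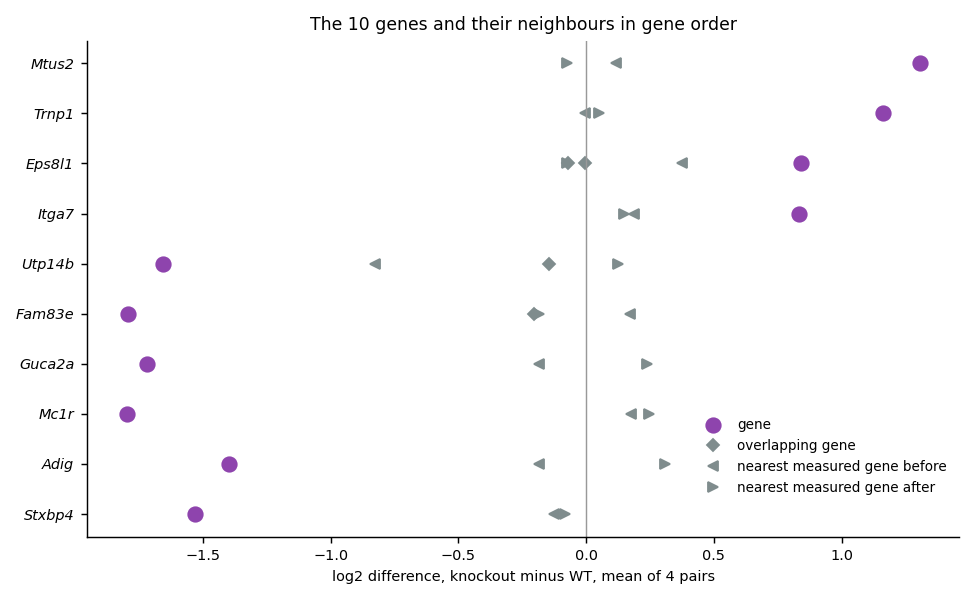
Mean difference of mutants from WT over 4 pairs (log2) for each of the 10 genes (purple) and for the measured genes that overlap or flank it (grey). The genes lie between -1.80 and 1.31 and the neighbours cluster around 0, with Mogat1 beside Utp14b at -0.83 the farthest out.

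Likeness of pattern was taken as Pearson's r of the level over the 8 total-cell arrays, which share slides and genotypes, and is a description. The closest named gene to Fam83e among all measured was Guca2a, itself among the 10, at r = 0.995, and each was the other's nearest. Next to them stood Npm2 (r = 0.973 with Fam83e), an egg nucleoplasmin, and Dbil5 (0.981 with Guca2a). The mean of Dbil5 on the mutant total-cell arrays, -6.04, was below the lowest level well above background on each of them. Utp14b was most like Orc1 (0.981), a subunit of the origin recognition complex, which was at -1.03 ± 0.17 in mutants versus WT (SD, n = 4 pairs), and Mast4 (0.967), at -0.84 ± 0.20.
Itga7 was most like 1700097N02Rik (0.987), which was 0.70 ± 0.03 higher in mutants than in WT (SD, n = 4 pairs). Adig was most like Scx (0.981), a tendon transcription factor, at -1.06 ± 0.22. Mtus2 was most like Gas2 (0.983), Trnp1 most like Fam114a1 (0.985), Eps8l1 most like Ppm1m (0.972), Mc1r most like Ropn1l (0.976) and Stxbp4 most like Camk2b (0.98). The r of Stxbp4 takes in its mutant spots within background, whose order is not read. Nothing about shared control is read from these values.

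Relatives and partners of the 10 genes mostly stayed near WT, where all features had 0.555% called. None of the 11 measured genes of the UTP list, which holds Acsl3, passed in the limma fit, 0 had an unadjusted p under 0.05, and their median difference was -0.01. Utp14a, the parent of the Utp14b retrogene, was at 0.24 ± 0.35 (SD, n = 4 pairs; adjusted p = 0.285, limma), opposite in sign to Utp14b.
In the FAM83 list, 1 of 4 measured genes passed. It was Fam83d, a spindle protein, at -1.46 ± 0.54 (SD, n = 4 pairs; adjusted p = 0.049, limma), well above background on 1 of 4 mutant and 4 of 4 WT arrays. Of the guanylin receptor Gucy2c and Guca1b, a guanylate cyclase activator known from photoreceptors, 0 of 2 passed in the limma fit and 2 had an unadjusted p under 0.05. Gucy2c was at -1.04 ± 0.38 (SD, n = 4 pairs; adjusted p = 0.0543, limma), above background on 0 of 4 mutant and 3 of 4 WT arrays.
In the limma fit, 0 of 11 integrin genes passed and 2 had an unadjusted p under 0.05, with a median of -0.01. Itgb1, the partner chain of Itga7, was at 0.07 ± 0.01 and the laminin-binding relative Itga6 at 0.20 ± 0.18 (SD, n = 4 pairs each). The lists for microtubule tips (0 of 3, median -0.09), melanocortin receptors and ligands (0 of 3, 0.13), EPS8 partners (0 of 2, 0.14), syntaxin binding (0 of 6, -0.08), adipogenesis (0 of 3, -0.06), Trnp1-related chromatin proteins (0 of 3, 0.02) and genes that differ between C57BL/6 substrains (0 of 5, -0.04) also had no call, and 2 of their 25 genes had an unadjusted p under 0.05. Lists were chosen with results of these data known, and their medians are descriptions.

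Several of the 10 genes are known from other cell types, whose markers were read beside them. In the limma fit of mutants versus WT, 0.555% of all features were called and 17.8% had an unadjusted p under 0.05. Adipocyte markers, measured for 4 of 12 genes, summed to between 0.38 and 0.47 in mutant and 0.42 and 0.58 in WT arrays (linear units of the array's 75th percentile). Adipoq, Fabp4 and Plin1 were well above background on fewer than 2 of 12 arrays and were left out. In the limma fit 0 of these 4 passed and 1 had an unadjusted p under 0.05. Epithelial markers (6 of 14) summed to 2.79 to 3.48 in mutants and 2.96 to 3.35 in WT, most of it Lgals4. Krt8, Vil1 and Muc2 were well above background on fewer than 2 of 12 arrays. Melanocyte markers (4 of 8) summed to 0.37 to 0.56 in mutants and 0.43 to 0.60 in WT, with Tyrp1, Pmel and Mlana well above background on fewer than 2 of 12 arrays.
The sums of mutants and WT overlapped for these 3 lists. By gene, 1 of 4 adipocyte, 2 of 6 epithelial and 1 of 4 melanocyte markers were higher in mutants. The median differences were -0.31, -0.12 and -0.10 in that order. Germ cell markers (4 of 8) summed to 0.13 to 0.22 in mutants and 0.10 to 0.17 in WT. Stroma and muscle markers (4 of 12) gave 14.8 to 22.9 in mutants and 21.4 to 26.3 in WT, most of it Acta2. Sums for macrophage markers (3 of 7) were 1.73 to 2.84 in mutants and 2.90 to 3.69 in WT, without overlap, though 0 of 3 passed in the limma fit (3 had an unadjusted p under 0.05), and Cd68 was at -0.69 ± 0.37 (SD, n = 4 pairs; adjusted p = 0.101, limma).
B cell markers (7 of 12) summed to 5.28 to 7.26 in mutants and 4.56 to 5.46 in WT, with Ms4a1 well above background on fewer than 2 of 12 arrays. Most of that sum was Cd79b, at 0.34 ± 0.16 (SD, n = 4 pairs; adjusted p = 0.229, limma). Of the 7 genes 3 were higher in mutants, and the median difference was -0.02. AID KO and uMT were pooled here, so these values do not give B cell markers in uMT alone. CD4 T cell markers (5 of 6) gave 1.22 to 2.63 in mutants and 1.23 to 2.36 in WT. Erythroid markers (2 of 7) ranged over 0.20 to 4.90 in mutants and 0.08 to 2.56 in WT. Platelet markers (5 of 9) gave 0.19 to 0.40 in mutants and 0.22 to 0.29 in WT. Of these 1 of 5 passed, Gp5, at an adjusted p of 0.0188 (limma), above background on 0 of 4 mutant and 2 of 4 WT arrays. With limma, 2 of 7 B cell, 1 of 4 melanocyte, 1 of 4 germ cell and 1 of 5 platelet markers had an unadjusted p under 0.05. The epithelial, stroma, CD4 T cell and erythroid lists had 0. The part of other cells in the shifts of the 10 genes was not tested.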

How the data were processed

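The members and the gene lists were chosen with earlier results of these data known. Per the file headers and the submitters' processing notes, Agilent Feature Extraction 11.0.1.1 gave the spot intensity in the deposited files. The deposited files also hold flags of 0 or 1 (other values) for spots above background, saturated or outlying, and the authors' deposited series matrix holds log2 values, quantile normalized within each slide as its sorted columns show. From the scanner files, log2 processed intensity minus the array's 75th percentile was taken, 61 to 342 outlier-flagged spots per array were left out, spots of a probe were averaged, and probes well above background on at least 2 of 12 arrays were kept. The array's accessions were named through RefSeq GRCm38.p6 (32994 of 56605 probes with 1 symbol, 0 with several, 23611 unnamed). The brightest kept probe stood for a gene, which left 25387 features. One limma 3.58.1 fit (R 4.3.3) over 12 arrays had node, slide and both mutant terms for total cells, and an intercept, uMT and Sca1p for naive cells, leaving 4 residual degrees of freedom. Adjusted p-values are Benjamini-Hochberg over all features, two-sided. The fit was tested on simulated data. Named genes are the 10 members, the 2 most alike by r, the nearest measured neighbours, and list genes by level or call. The number of arrays limits the precision. Results that need withheld items are not reported here. Normexp ran on the median spot signal in place of the planned mean. Alternatives were another background correction, scaling, filter, probe rule, source of values, slide term, pair block, fewer arrays and leaving out each array.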

Additional observations from a re-analysis of the deposited data

Results flagged for a closer look

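Leaving out Stxbp4, whose total-cell mutant spots were all within background, 5 genes differed between uMT and AID KO one way in both naive fractions and the opposite way in both nodes of total cells. The share of all features with such a pattern was not counted, so nothing is read from the number of genes. The difference between the cell states was not tested, and slide 3 held the naive arrays alone. The mean of uMT minus AID KO for Mc1r was 1.39 in naive cells (0.53 under normexp), against -1.10 in total cells, where pairs with WT were used. Spots not well above background enter the values of Mc1r (Sca1p AID KO and uMT MLN), Fam83e (AID KO PLN) and Adig (uMT MLN). For Mtus2 it was -0.33 in naive cells and 0.43 in total cells. For Fam83e it was -0.17 in naive cells and 0.67 in total cells, and for Guca2a -0.24 in naive cells and 0.51 in total cells. Adig was at 0.055 in naive cells and -0.25 in total cells, and the naive value is within the spread of its arrays.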

How the results depend on the processing

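The alternatives gave 804 values of the 10 genes, and 0 passed the threshold in the 3 tested comparisons. None of the 10 genes passed there under the main settings either, so no called value could change sign. The differences from WT carry no test, and all kept their sign. Some alternatives cannot move a difference from WT. Leaving out the slide term, using the pair block, the total-cell arrays alone or leaving out a naive array changes only its error. Mtus2 was at 1.31 in each of these. Of the 24 values that moved, 8 were differences from WT under normexp, all smaller with the same sign, and 16 were sign changes of uncalled values. Normexp also moved named uncalled differences by over 1.5 times: Stxbp4 in Sca1p versus Sca1m to 0.27, Mc1r in uMT versus AID KO naive cells to 0.53, and Utp14b and Mc1r in MLN versus PLN to -0.22 and 0.25. Counts of called features depended on the settings. In mutants versus WT, 141 became 89 with median scaling, 6 with no filter, 534 with probes above background on all arrays and 302 with the authors' matrix. It became 17 with no slide term, 11 with the site and slide pair as block and 46 with the total-cell arrays alone. With a naive array left out it was 46. With a total-cell array left out it was 28 for uMT PLN and between 0 and 3 for any other. The higher and lower calls were 44 and 97, against 94 and 113 with normexp, 39 and 50 with median scaling and 164 and 138 with the matrix. In MLN versus PLN, 28 became 61 with normexp, 16 with no filter, 73 with the all-array filter, 43 with the matrix and 2 to 24 with an array left out, and the pair block gives no value there. In Sca1p versus Sca1m, 4 became 11 with normexp, 17 with quantile normalization (7 higher and 10 lower, against 3 and 1), 0 with no filter (2791 at an unadjusted p under 0.05), 22 with the all-array filter, 8 with the matrix (4 and 4), 0 with the naive arrays alone (1197 at an unadjusted p under 0.05) and 0 to 165 with an array left out. In uMT versus AID KO naive cells, 88 became 29 with normexp, 24 with the all-array filter, 11 with the matrix (7 higher and 4 lower, against 42 and 46), 0 with the naive arrays alone (1442 at an unadjusted p under 0.05) and 27 to 208 with an array left out. The causes were not tested. The labels number no replicates, and titles name a WT control for the PLN arrays alone, so the pairs used site and slide. Dim spots limit Stxbp4, Mc1r, Adig and Fam83e, whose lowest arrays lie within background.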
